A study of Mus musculus with 58 samples.

Results

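GABAergic neurons are the inhibitory neurons of the cortex, and 33 genes of these cells and of inhibitory synapses are described here in prefrontal cortex of mice. They were chosen by name: the GABA-synthesising enzymes and the vesicular transporter, subunits of the GABA-A and GABA-B receptors, synaptic scaffold and adhesion proteins, chloride cotransporters, markers of interneuron classes, and interneuron transcription factors with the receptor Erbb4. All 33 listed symbols were found among 18088 genes and had a mean normalised count of at least 10, the minimum that 16669 genes met. The rule for membership uses names and that minimum.

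The samples were prefrontal cortex of C57BL/6J mice labelled heterozygous for Kmt5b (HT), a gene for a histone H4 lysine methyltransferase, or wild-type (WT). Pups of both genotypes received vehicle, the serotonin reuptake inhibitor fluoxetine or the mood stabiliser lithium in the milk of their dams over 3 weeks (postnatal days 3 to 24), and the cortex was collected at day 25. The groups held 10 libraries each for HT vehicle, HT fluoxetine, HT lithium, WT vehicle and WT fluoxetine, and 8 of WT lithium, with equal numbers of females and males. The labels gave neither the structure of the mutant allele nor the litter, and pups that share a dam share its drug, so p values measure only the spread between these libraries.

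GABA is made from glutamate by the decarboxylases Gad1 and Gad2 and loaded into vesicles by Slc32a1. It opens GABA-A receptors, chloride channels built from several subunits, and activates GABA-B receptors, which act through G proteins. Whether chloride enters or leaves a neuron depends on the cotransporters Slc12a5 and Slc12a2, whose balance shifts during early postnatal life. Cortical interneurons fall into classes marked by Pvalb, Sst, Vip or Lamp5, and other GABAergic neurons settle in the olfactory bulb, where many carry Calb2 and the Dlx factors.

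Recovered reads per library ranged from 23.5 M to 38.6 M with a median of 27.6 M, so counting error was small for the members, the lowest of which averaged 138 normalised counts. Between replicates of a group, the squared deviation of a gene averaged 2.92 to 57.4 times its sampling variance over 112 pairs. Kmt5b itself stood at 1734 ± 98.3 (SD, n = 30) in HT and 1654 ± 137 (SD, n = 28) in WT libraries, which gives 0.07 on the log2 scale for HT minus WT (SE 0.0251, limma adjusted p = 0.186). The genotype label was therefore not mirrored by less Kmt5b RNA, HT means the libraries so labelled, and any direction between HT and WT rests on that label. Slc17a7, the vesicular glutamate transporter of cortical excitatory neurons, was present in every library, at 33553 to 55883 normalised counts.

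Markers of mitral and tufted cells of the olfactory bulb varied far more between libraries. The olfactory bulb level, the mean log2(normalised count + 1) of Cdhr1, Doc2g, Tbx21 and Eomes, lay between 3.6 and 5.01 in 10 libraries and between 6.77 and 10.6 in the other 48. Tbx21, at 0.959 to 9.68 normalised counts in the 10 libraries and 18 to 324 in the 48, was near 0 in the first set. Of the 10 low libraries 3 were HT fluoxetine, 3 HT lithium, 3 WT vehicle, 1 WT fluoxetine, and 0 HT vehicle or WT lithium. The sum of the 4 markers had a median of 2997 (1218 to 6740) in HT vehicle, 1830 (157 to 10513) in HT fluoxetine and 3316 (137 to 5383) in HT lithium. In WT it had a median of 2230 (147 to 4807) with vehicle, 2114 (95.8 to 9976) with fluoxetine and 2200 (877 to 5776) with lithium. In addition, HT fluoxetine female 2 and WT vehicle female 5 had a striatal marker level of 8.98 and 8.34, while the other libraries stood at most at 7.83.

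Levels of different genes were set side by side per kb of exon. That length joins all annotated exons of a gene, whether or not the cortex uses them, so the order depends in part on the annotation. On this scale the neuropeptide genes Cck, Sst and Npy were the highest, while the neuropeptide gene Vip (382 ± 46.6) lay far lower. Cck averaged 6314 ± 995, Sst 5698 ± 830 and Npy 4439 ± 489 normalised counts per kb (SD, n = 58). Among receptor genes the GABA-B subunits led, with Gabbr1 at 2563 ± 132 and Gabbr2 at 1865 ± 203. Of the GABA-A subunits listed, Gabra3 (1298 ± 121) was the highest and Gabrg1 (111 ± 18.1) the lowest. The chloride extruder Slc12a5 (2114 ± 174) had a level per kb well above that of the chloride importer Slc12a2 (177 ± 20.3). Gad1 (1200 ± 247) and Gad2 (862 ± 114) exceeded Slc32a1 (685 ± 97.3), and the lowest gene was the transcription factor Dlx6 (58.2 ± 18.7). Gphn, the gephyrin scaffold that anchors GABA-A receptors, and Gabbr1 varied least, with a coefficient of variation of 5.12% and 5.15%. Calb2, the calcium-binding protein calretinin, varied most, at 62.1%, followed by Dlx1 at 46.9%, Dlx2 at 41.3% and Dlx5 at 40.4%. Calb2 ranged 21.4-fold, from 221 to 4749 normalised counts, and Dlx1 ranged 7.46-fold, from 512 to 3822.

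**Figure D1:**
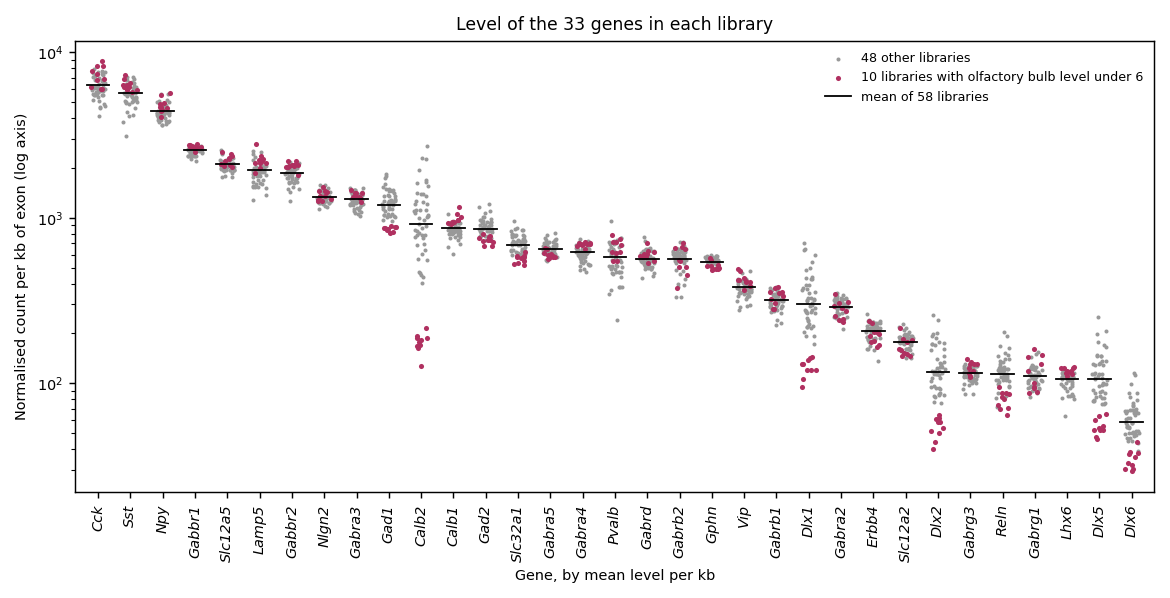
Normalised count per kb of exon (log axis) of each gene in each of 58 libraries, with 10 libraries of olfactory bulb level under 6 in red and the mean as a black line. The red points lie below all others for Calb2, Dlx1, Dlx2 and Gad1, and the highest Sst and Lhx6 values are red.

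The members separated into genes that rose and genes that fell with the olfactory bulb level inside groups. With that level added to the 12 groups of genotype, treatment and sex, 13 members rose, 17 fell and 3 did not pass (limma adjusted p under 0.05). Thus 30 of 33 passed, while 41.9% of all genes did (19.5% rising and 22.3% falling). Calb2 rose by 0.58 on the log2 scale per unit of the level (SE 0.0130, adjusted p = 2.95e-39). The transcription factors of GABAergic precursors and bulb interneurons followed, Dlx1 with 0.35 (SE 0.0186), Dlx2 with 0.31 (SE 0.0177), Dlx5 with 0.27 (SE 0.0190) and Dlx6 with 0.23 (SE 0.0145). Reln, a secreted protein of mitral cells and of some interneurons, had a slope of 0.16 (SE 0.0130). The genes of GABA synthesis and loading rose less steeply, Gad1 by 0.15 (SE 0.00914), Slc32a1 by 0.08 (SE 0.00856) and Gad2 by 0.08 (SE 0.00866). Gabra5, Gabra2, Gphn and Slc12a2 rose by 0.02 to 0.04.

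In the opposite direction, markers of cortical interneurons fell as bulb markers increased. Pvalb had a slope of -0.09 (SE 0.0170, limma adjusted p = 4.05e-05), Sst -0.08 (SE 0.0124), Lhx6 -0.07 (SE 0.0112), Cck -0.07 (SE 0.0124) and Gabbr2 -0.06 (SE 0.00883). Lhx6 is the transcription factor of interneurons from the medial ganglionic eminence, the origin of Pvalb and Sst cells. Gabrb2, Gabrg1 and Erbb4 did not pass. In the 48 libraries alone 25 members passed, 13 rising and 12 falling, against 35.8% of all genes (16.7% rising and 19.1% falling), and 24 passed in both fits. There the slope was 0.72 (SE 0.0172) for Calb2, 0.25 (SE 0.0145) for Gad1, -0.21 (SE 0.0218) for Sst and -0.17 (SE 0.0223) for Lhx6.

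Ranges in single libraries restate this split, since the 10 low libraries were set apart by the same bulb level. Calb2 stood at 221 to 378 normalised counts in the 10 low libraries and at 707 to 4749 in the 48 others, so the sets did not overlap. Dlx1 (512 to 775 against 934 to 3822), Dlx2 (115 to 185 against 218 to 737) and Gad1 (6223 to 6800 against 7279 to 13992) did not overlap either. The share of all genes without overlap between these sets was not counted, so it is not known whether such a separation is common. Sst, at 4169 to 5280 in the low set and 2252 to 5114 in the other, overlapped, as did Lhx6 (532 to 601 against 306 to 581). HT fluoxetine male 4, with the highest bulb level, had the highest Calb2 (4749), Dlx1 (3822) and Gad1 (13992) and the lowest Sst (2252), Lhx6 (306) and Pvalb (252) of all libraries. In bulk tissue, fewer cells of a type and less RNA per cell cannot be told apart.

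**Figure D2:**
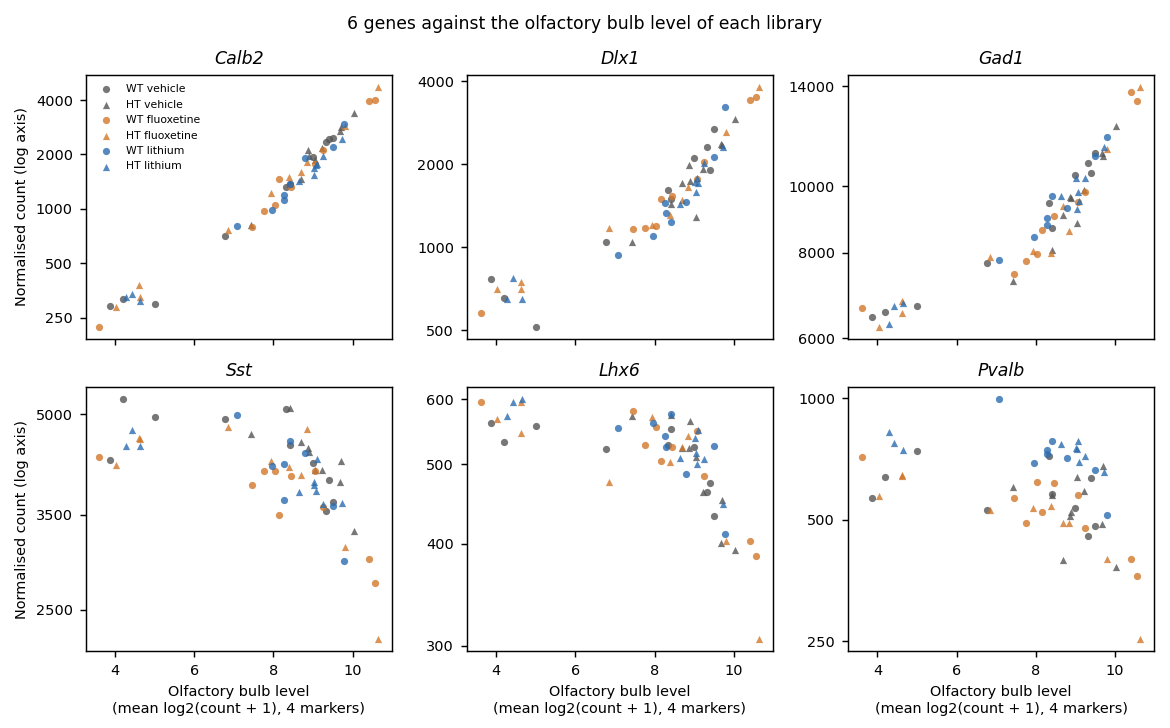
Normalised counts (log axis) of 6 genes against the olfactory bulb level in 58 libraries, coloured by treatment with WT as circles and HT as triangles. Calb2, Dlx1 and Gad1 climb over the whole range, and Sst, Lhx6 and Pvalb are lowest at the highest levels, with HT fluoxetine male 4 at the extreme of every panel.

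**Figure D3:**
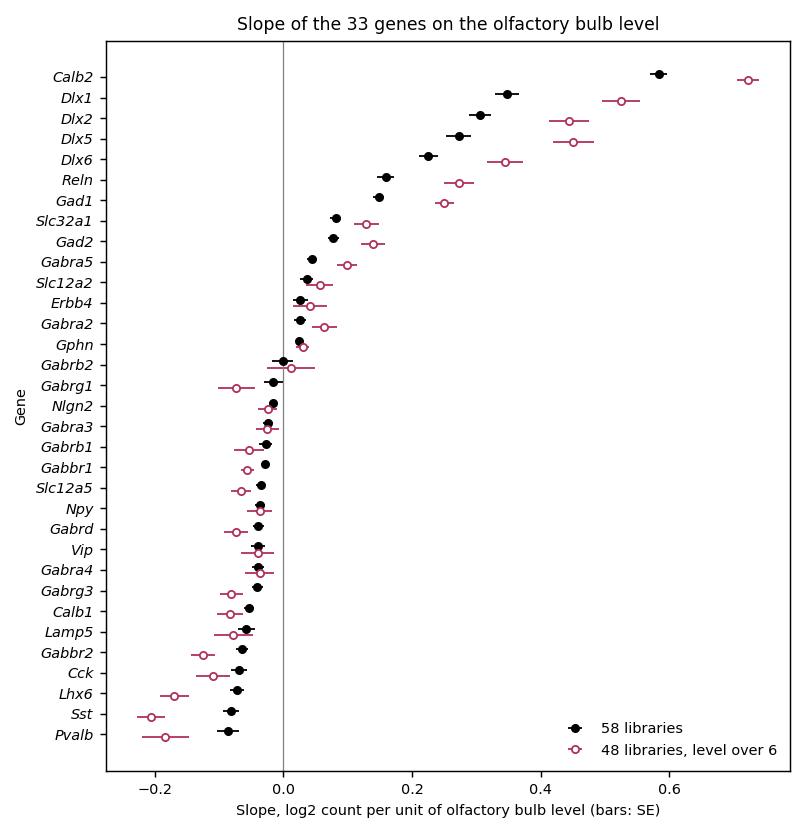
Slope of each gene on the olfactory bulb level, in log2 counts per unit, with SE bars, in 58 libraries (filled) and in the 48 with a level over 6 (open). Calb2 has the steepest rise (0.58 and 0.72), and Pvalb and Sst have the steepest falls.

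The comparison of HT with WT asks whether the genotype alters these genes. No member passed by limma under vehicle, where 0.048% of all genes did. Nor did any pass under fluoxetine (0.612% of all genes), under lithium (0.06%) or averaged over treatments (0.468%). At an unadjusted p under 0.05 there were 7, 4, 2 and 2 members, edgeR called 0 in each comparison, and DESeq2 called 1 under fluoxetine (0.972% of all genes) and 0 in the others. The median log2 difference of the 33 was -0.02 under vehicle, -0.06 under fluoxetine, 0.01 under lithium and -0.01 on average, and all-gene medians lay between -0.0045 and 0.0013.

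Under vehicle the smallest p values belonged to 2 receptor subunits and a neuropeptide. Gabra4 ranged from 2847 to 4417 with a median of 3357 in HT, and from 3423 to 4267 with a median of 3913 in WT. Its log2 difference was -0.19 (SE 0.0627, 95% confidence interval -0.32 to -0.07, limma adjusted p = 0.197). Vip, the peptide of an interneuron class that inhibits other interneurons, differed by -0.20 (SE 0.0726, adjusted p = 0.246) and Gabra3 by -0.13 (SE 0.0489, adjusted p = 0.257). Of the 9 GABA-A subunits 8 had a difference below 0, with a median of -0.06, and 0 passed. In females 8 of 9 were below 0 and in males 3, Gabra3, Gabra4 and Gabrg1, and Gabrb2 stood at -0.32 in females and 0.23 in males. Whether the sexes differed was not tested. The difference of Calb2, 0.95 (SE 0.491, interval -0.04 to 1.93, adjusted p = 0.433), was the widest in range, and HT vehicle had 0 and WT vehicle 3 of the libraries with a low bulb level. The part of the bulb level in the difference of Calb2 was not tested.

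Under fluoxetine the subunit Gabrb2 stood at 2403 to 3971 with a median of 3293 in HT and at 3519 to 4525 with a median of 3957 in WT. Only 1 of 10 HT libraries exceeded the WT median, and the log2 difference was -0.35 (SE 0.0953, interval -0.55 to -0.16, limma adjusted p = 0.0638). It passed by DESeq2 on 54 libraries (-0.33, adjusted p = 0.0309) and with the bulb level in the fit (-0.36, adjusted p = 0.0441; 1.35% of all genes). It also passed without HT fluoxetine female 2 (-0.39, adjusted p = 0.0341) or without HT fluoxetine female 3 (-0.41, adjusted p = 0.0227). Those libraries had the highest Gabrb2 values of HT fluoxetine (3689 and 3971). It passed in no other of the 20 fits that left out 1 library. With vehicle, Gabrb2 in HT ranged from 2113 to 4143 with a median of 3769. Gabrg1 differed by 0.26 (adjusted p = 0.157) and Gabra3 by -0.14 (adjusted p = 0.17). Under lithium the smallest p values were those of Gabrg3 (0.17, adjusted p = 0.335), Gabrb1 (0.14, adjusted p = 0.463) and Erbb4 (0.14, adjusted p = 0.539), the neuregulin receptor of interneurons. Averaged over treatments they were those of Gphn (-0.05, adjusted p = 0.329), Gabra3 (-0.07, adjusted p = 0.333) and Vip (-0.09, adjusted p = 0.478).

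**Figure D4:**
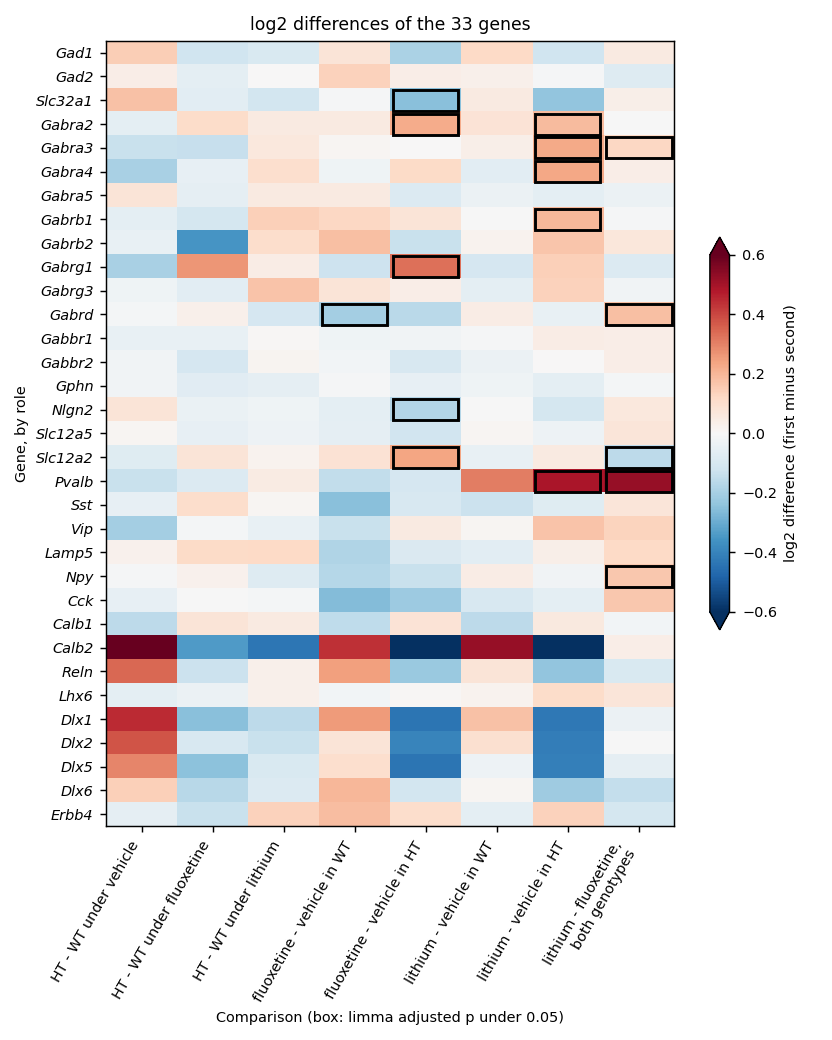
log2 differences (colour) of the 33 genes, ordered by role, in 8 comparisons, with a box where the limma adjusted p was under 0.05. No box stands in the 3 genotype columns, 1 in fluoxetine in WT, 5 each in fluoxetine in HT, lithium in HT and lithium against fluoxetine, and 0 in lithium in WT, while Calb2, whose differences reach past the colour scale, has none.

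Fluoxetine against vehicle in HT gave 5 members past the threshold (15.2% of 33), 3 higher and 2 lower, against 12.8% of all genes, 6.84% higher and 5.96% lower. That share is close to the background. Among receptor subunits Gabra2 and Gabrg1 rose. Gabra2, an alpha subunit of synaptic receptors, went from 2029 ± 221 with vehicle (1628 to 2288, median 1999) to 2360 ± 173 with fluoxetine (2086 to 2683, median 2392; SD, n = 10 each), by 0.22 on the log2 scale (SE 0.0600, limma adjusted p = 0.0111). All 10 fluoxetine libraries lay above the vehicle median, though the ranges overlapped. Gabrg1 went from 789 ± 76.0 (688 to 922, median 794) to 1002 ± 161 (743 to 1264, median 996), by 0.33 (SE 0.0907, adjusted p = 0.0122), with 9 of 10 above the vehicle median.

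Nlgn2, the neuroligin of inhibitory synapses, fell in HT with fluoxetine, from 8249 ± 505 (7595 to 9080, median 8357) to 7288 ± 266 (6837 to 7881, median 7294; SD, n = 10 each). All 10 fluoxetine libraries were below the vehicle median (-0.18, SE 0.0407, limma adjusted p = 0.00337). Slc12a2, the cotransporter that brings chloride into cells and is also made by glia, rose from 1811 ± 167 (1559 to 2048, median 1752) to 2136 ± 225 (1726 to 2481, median 2114), by 0.24 (SE 0.0654, adjusted p = 0.0136). Slc32a1 fell from 2135 ± 228 (1750 to 2398, median 2198) to 1806 ± 289 (1470 to 2421, median 1783), by 0.25 on the log2 scale (SE 0.0847, adjusted p = 0.0428). Its call ended with the bulb level in the fit (-0.12, adjusted p = 0.0794) and without the 10 low libraries (-0.15, adjusted p = 0.214). It also ended in 13 of 20 fits that left out 1 library: HT fluoxetine female 1 or 4, male 1, 2, 3 or 5, or HT vehicle female 1, 3, 4 or 5, male 1, 2 or 4 (adjusted p from 0.0502 to 0.0918). Of the low libraries 3 were in HT fluoxetine and 0 in HT vehicle, and Slc32a1 rises with the bulb level as described above. The part of the bulb level in the fall of Slc32a1 was not tested. With edgeR on 54 libraries, which hold 7 HT vehicle libraries, 1 of the 5 calls was kept, that of Nlgn2 (4.9% of all genes), and with DESeq2 2 were kept, those of Nlgn2 and Gabrg1 (6.02%).

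With the bulb level in the fit 12 members passed in this comparison, against 24.5% of all genes. The 8 that passed there and not without it were Gad2 (0.16) and Dlx6 (0.24), both higher, and Gabrd (-0.22), Gabbr2 (-0.20), Slc12a5 (-0.17), Sst (-0.22), Npy (-0.19) and Cck (-0.32), all lower. Dlx6 turned direction, from -0.11 (adjusted p = 0.762) without the bulb level. Without the 10 low libraries Gabrd (-0.22), Npy (-0.19) and Cck (-0.32) also passed. Markers of other cells differed in the same libraries: 3 of 8 oligodendrocyte markers rose (37.5%, against 12.8% of all genes), among them Mobp (0.59) and Mog (0.46), and the sum of the 8 had a median of 142520 (79984 to 187290) with fluoxetine and 110290 (61148 to 133250) with vehicle. S100b (0.17) and Gja1 (0.17) rose among 7 astrocyte markers (28.6%, median sum 125990, 108200 to 144520, against 114530, 100550 to 125730). Of these 7, 5 were above 0 and 2 below. P2ry12 (0.30) and Cx3cr1 (0.17) rose among 6 microglia markers (33.3%, median sum 8078, 6759 to 8691, against 7263, 6502 to 8011), and all 6 were above 0. The part of these cells in the results for Gabrg1 and Slc12a2 was not tested.

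In WT, fluoxetine changed 1 member, Gabrd (3.03% of 33, against 7.39% of all genes and 3.41% lower). Gabrd is the delta subunit, known for receptors outside synapses that give tonic inhibition. It fell from 1706 ± 172 (1467 to 2011, median 1699) to 1480 ± 121 (1279 to 1700, median 1492; SD, n = 10 each), by 0.20 on the log2 scale (SE 0.0600, limma adjusted p = 0.0306), with 1 of 10 fluoxetine libraries above the vehicle median. In HT the difference was -0.16 (adjusted p = 0.0675). The WT call ended without the 10 low libraries (-0.19, adjusted p = 0.0932) and in 7 of 20 fits that left out 1 library: WT fluoxetine female 3, male 1 or 4, or WT vehicle female 1 or 4, male 1 or 2 (adjusted p from 0.056 to 0.0731). On 54 libraries edgeR called 1 member here (6.68% of all genes), Gabrd, and DESeq2 2 (7.83%). The neuropeptide genes had values below 0 that did not pass, Npy with -0.17 (SE 0.0583, adjusted p = 0.0612) and Cck with -0.26 (SE 0.0933, adjusted p = 0.0713). Of the 9 class markers 7 were below 0 in WT (median -0.15), and 7 in HT (median -0.10). The difference between genotypes in the response to fluoxetine passed for 0 members (0.042% of all genes, 6 members at an unadjusted p under 0.05, 0 by edgeR and DESeq2). The smallest p was that of Gabrg1 (0.46, SE 0.128, adjusted p = 0.152).

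Lithium against vehicle in HT gave 5 members higher and 0 lower (15.2% of 33, against 14.1% of all genes and 7.46% higher). They were 4 GABA-A subunits and Pvalb, so that 4 of 9 subunits rose and 5 did not pass, with a subunit median of 0.17. Gabra3 went from 4719 ± 470 (4181 to 5657, median 4608) to 5513 ± 294 (5061 to 5957, median 5523; SD, n = 10 each), by 0.23 on the log2 scale (SE 0.0489, limma adjusted p = 0.00123). Gabra4 went from 3439 ± 436 (2847 to 4417, median 3357) to 4018 ± 236 (3594 to 4328, median 4002), by 0.23 (SE 0.0627, adjusted p = 0.00973). All 10 lithium libraries lay above the vehicle median for both genes.

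Gabrb1 rose by 0.20 (SE 0.0638, limma adjusted p = 0.0303) and Gabra2 by 0.19 (SE 0.0600, adjusted p = 0.0257). Gabrb1 had 4122 ± 530 with vehicle (3185 to 4988, median 4211) and 4698 ± 297 with lithium (4325 to 5311, median 4655). Gabra2 had 2324 ± 310 with lithium (1781 to 2652, median 2464) against the vehicle values above, and its difference was 0.35 in females and 0.03 in males. Both calls were less firm. Gabrb1 missed the threshold with the bulb level in the fit (0.16, adjusted p = 0.0525) and without the 10 low libraries (0.17, adjusted p = 0.106). It also missed it without HT lithium female 4 or male 5, or HT vehicle female 1 or 2, male 2 or 4 (adjusted p from 0.0547 to 0.0829). Gabra2 missed it without HT lithium female 4, male 4 or 5, or HT vehicle female 3 or male 5 (adjusted p from 0.051 to 0.0715). On 54 libraries edgeR called 2 of the 5, Gabra3 and Pvalb (6.44% of all genes), and DESeq2 these and Gabra4 (7.54%). Slc32a1 differed by -0.24 without passing (adjusted p = 0.052). It passed under quantile normalisation (adjusted p = 0.0465), with a minimum mean of 100 (0.0459) and in a fit of the compared groups alone (0.0165). It also passed without HT lithium female 1, 2 or 3 or male 2, or HT vehicle female 2, male 3 or 5 (adjusted p from 0.0309 to 0.0492). Nlgn2 differed by -0.11 without passing (adjusted p = 0.0658), and it passed with the bulb level in the fit (-0.13, adjusted p = 0.0172). Markers of other cells differed in the same libraries. Olig2 (-0.28) fell among 8 oligodendrocyte markers (median sum 96639, 77470 to 113320, against 110290, 61148 to 133250 with vehicle). Slc2a1 (0.53) rose and Cldn5 (-0.37) and Cdh5 (-0.25) fell among 5 endothelial markers (60%, against 14.1% of all genes). Their median sum was 7667 (7137 to 8352), against 6757 (6170 to 7382) with vehicle, though 3 of 5 were below 0. Top2a (-1.03) and Mki67 (-0.81) fell among 6 markers of neuroblasts and dividing cells (33.3%). Their median sum was 5528 (3114 to 7058), against 5273 (4238 to 7797) with vehicle, though 5 of 6 were below 0. A sum follows its most abundant genes, so it need not share the direction of most markers. The part of these cells in the results for HT with lithium was not tested.

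The subunit genes Gabrg1, Gabra2, Gabra4 and Gabrb1 lie in 1 cluster on chromosome 5 (GRCm38). Gabrg1 spans 70751047 to 70842617, Gabra2 70957597 to 71095849 and Gabra4 71569749 to 71658308, all on the minus strand. Gabrb1 runs on the plus strand from 71658113 to 72149037, so its annotated start overlaps the start of Gabra4, and reads there depend on how strand was used in counting, which is not given in the sources used here. In lithium-treated HT libraries 3 of the 4 rose, while 14.1% of all genes passed and 7.46% were higher. Gabrg1 differed by 0.14 without passing. The calls of Gabra2 and Gabrb1 were the less firm ones described above, and edgeR called none of the cluster. Whether the cluster changed as a unit was not tested. In WT with lithium their differences were -0.10 for Gabrg1, 0.08 for Gabra2, -0.06 for Gabra4 and -0.0043 for Gabrb1, and 0 passed. The difference between genotypes in the response to lithium was 0.29 for Gabra4 (SE 0.0914, limma adjusted p = 0.201) and 0.19 for Gabra3 (SE 0.0713, adjusted p = 0.247), and 0 of 33 members passed, as did 0 of all genes (6 members at an unadjusted p under 0.05, 0 by edgeR and DESeq2).

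Pvalb, the calcium buffer parvalbumin of fast-spiking basket and chandelier cells, differed between lithium and the other treatments in both genotypes by group means. With lithium it stood at 655 to 824 with a median of 750 in HT, and at 512 to 998 with a median of 719 in WT. With vehicle it was 383 to 678 (median 550) in HT and 454 to 741 (median 574) in WT, and with fluoxetine 252 to 645 (median 532) and 362 to 717 (median 543). The lithium and fluoxetine libraries of HT did not overlap, and the other pairs of lithium with fluoxetine or vehicle inside a genotype did. In HT lithium 746 ± 47.7 compared with 539 ± 97.5 in HT vehicle (SD, n = 10 each), 0.49 higher on the log2 scale (SE 0.124, limma adjusted p = 0.00592). The rise was 0.46 in females and 0.52 in males, and it passed in 20 of 20 fits without 1 library. The low bulb level was found in 3 HT lithium and 0 HT vehicle libraries. The difference was 0.38 with the bulb level in the fit (adjusted p = 0.00835) and 0.47 without the 10 low libraries (adjusted p = 0.0183). In WT the difference was 0.31 (SE 0.131, interval 0.04 to 0.57, adjusted p = 0.219), and 0.40 (adjusted p = 0.0211; 4.36% of all genes) with the bulb level in the fit.

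In WT, lithium against vehicle passed for 0 of 33 members by limma, edgeR and DESeq2, against 3.34% of all genes by limma, and 2 members had an unadjusted p under 0.05. These were Pvalb and Calb1, the buffer calbindin, at -0.16 (SE 0.0709, adjusted p = 0.258). Next came Gabra2 with 0.08 (adjusted p = 0.583).

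Lithium against fluoxetine, averaged over genotypes, does not use the vehicle libraries and gave 4 members higher and 1 lower (15.2% of 33, against 12.3% of all genes, 6.62% higher and 5.71% lower). Pvalb was higher with lithium, 739 ± 93.9 (512 to 998, median 744; SD, n = 18) against 522 ± 110 (252 to 717, median 532; SD, n = 20). Its difference was 0.52 (SE 0.0903, limma adjusted p = 4.36e-05), and 17 of 18 lithium libraries exceeded the fluoxetine median. Npy, the peptide of a set of Sst and neurogliaform cells, was 2610 ± 250 (2326 to 3177, median 2532) against 2336 ± 203 (2050 to 2762, median 2318). It differed by 0.16 (SE 0.0425, adjusted p = 0.00686), and 18 of 18 lithium libraries were above the fluoxetine median. With vehicle, Pvalb averaged 563 ± 96.9 and Npy 2602 ± 286 (SD, n = 20). By these means vehicle lay nearer to fluoxetine for Pvalb and nearer to lithium for Npy.

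Gabrd was 1696 ± 203 (1412 to 2211, median 1633; SD, n = 18) with lithium and 1498 ± 131 (1237 to 1733, median 1505; SD, n = 20) with fluoxetine, 0.18 higher on the log2 scale (SE 0.0437, limma adjusted p = 0.00369). Gabra3 was 5413 ± 359 (4687 to 5957, median 5476) against 4965 ± 476 (4009 to 5973, median 5004), 0.12 higher (SE 0.0357, adjusted p = 0.0150). Slc12a2 was lower, 1868 ± 196 (1556 to 2179, median 1922) against 2079 ± 213 (1603 to 2481, median 2085), by -0.16 (SE 0.0477, adjusted p = 0.0230). The ranges of the drugs overlapped for each of these genes. With vehicle, Gabrd averaged 1698 ± 142, Slc12a2 1859 ± 187 and Gabra3 4938 ± 445 (SD, n = 20). By these means vehicle lay nearer to lithium for Gabrd and Slc12a2, and nearer to fluoxetine for Gabra3. On 54 libraries edgeR (10.5% of all genes) and DESeq2 (11.6%) each called 5 members, and 9 passed with the bulb level in the fit (18.3%). Beside the lower Slc12a2, 2 of 8 oligodendrocyte markers, among them Olig2 (-0.29), were also lower with lithium, and all 8 had a difference below 0. Of 6 microglia markers, P2ry12 (-0.24) and Cx3cr1 (-0.15) were lower, while the other 4 were above 0 and the median of the 6 was 0.02. The part of these cells in the lower Slc12a2 was not tested. Slc12a2 missed the threshold without WT lithium female 4 (adjusted p = 0.0580) or male 4 (adjusted p = 0.0595).

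**Figure D5:**
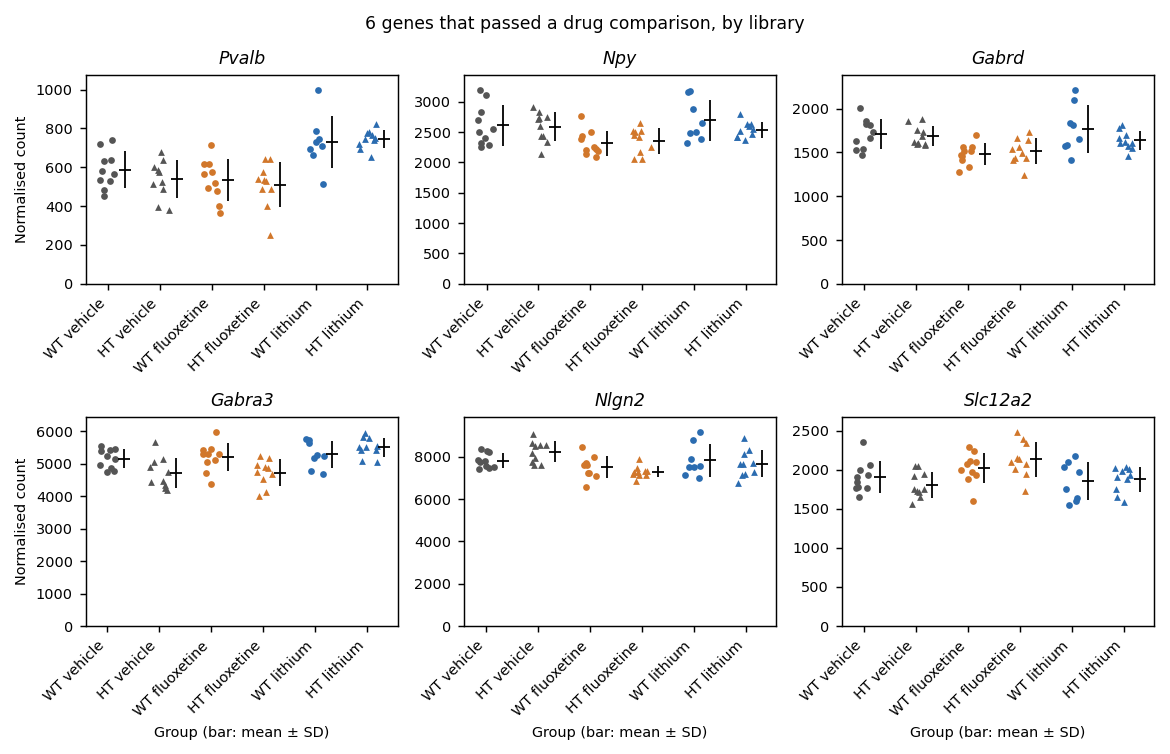
Normalised counts of 6 genes that passed a drug comparison, by genotype and treatment, each point a library and each bar the mean ± SD (n = 10, and 8 for WT lithium), on axes from 0. Pvalb stands highest in both lithium groups, Npy and Gabrd lowest in both fluoxetine groups, and the ranges of Pvalb in HT with lithium (655 to 824) and with fluoxetine (252 to 645) do not overlap.

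To show the sequence next to the start of genes that differed between the drugs, 250 bases upstream of the RefSeq start (GRCm38.p6) are given for Pvalb, Npy and Gabra3, on the strand of each gene. The table of promoters held 27 of the 33 members with 36 windows. Pvalb (ENSMUSG00000005716) is on chromosome 15 from 78191114 to 78206400 (minus strand), with its window at chr15:78206401-78206650. Npy is on chromosome 6 from 49822710 to 49829507 (plus strand), with its window at chr6:49822460-49822709. Gabra3 is on chromosome X from 72432681 to 72656848 (minus strand), and its RefSeq window is chrX:72656920-72657169. Capitals mark matches to the GC box motif GGGCGG in Npy and to the TATA box motif TATAAA in Gabra3, searched on both strands. The Gabra3 match reads TTTATA on the strand of the gene, so TATAAA lies on the opposite strand. It stands near the middle of the 250 bases, and whether it acts as a TATA box was not tested. Neither motif is in the Pvalb window.
Pvalb: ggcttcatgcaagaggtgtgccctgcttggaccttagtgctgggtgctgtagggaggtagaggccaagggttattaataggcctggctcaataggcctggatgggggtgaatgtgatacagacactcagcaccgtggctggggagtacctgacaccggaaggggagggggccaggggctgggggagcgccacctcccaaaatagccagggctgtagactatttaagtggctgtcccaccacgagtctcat
Npy: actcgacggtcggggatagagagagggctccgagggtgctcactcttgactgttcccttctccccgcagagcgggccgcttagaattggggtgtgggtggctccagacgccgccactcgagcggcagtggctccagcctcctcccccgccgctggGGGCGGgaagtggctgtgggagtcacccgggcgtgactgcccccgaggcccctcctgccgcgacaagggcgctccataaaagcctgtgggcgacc
Gabra3: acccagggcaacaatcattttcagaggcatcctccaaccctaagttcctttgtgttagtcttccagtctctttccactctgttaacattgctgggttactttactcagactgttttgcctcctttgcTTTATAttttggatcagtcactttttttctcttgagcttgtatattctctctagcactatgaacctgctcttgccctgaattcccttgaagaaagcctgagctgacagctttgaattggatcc
GGGCGG was in 15 of 36 member windows (41.7%) and in 32.7% of 32851 windows of all genes, and TATAAA in 5 (13.9%) and 12.4%. The cAMP response element TGACGTCA was in 1 member window, that of Sst, and in 1.55% of all. The E-box CACGTG was in 4 member windows, those of Cck, Dlx2, Reln and Slc12a5 (11.1%, and 6.02% of all), and a MEF2 site in those of Gabrb2 and Slc32a1 (5.56%, and 3.20% of all).

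Sex was tested as well, and 0 of 33 members passed between females and males (0.132% of all genes, 0 members at an unadjusted p under 0.05, 0 by edgeR and DESeq2). Gabrb2 (-0.11, SE 0.0562, limma adjusted p = 0.614), Nlgn2 (-0.05, adjusted p = 0.624) and Gabra2 (0.07, adjusted p = 0.628) had the smallest p values.

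Companion genes that act beside the members were read from fixed lists. Of 26 genes of the inhibitory postsynaptic scaffold and receptor trafficking, fluoxetine raised 4 and lowered 1 in WT (19.2%, against 7.39% of all genes) and raised 2 and lowered 1 in HT (11.5%, against 12.8%). Plcl1, a phospholipase-like protein that binds receptor trafficking proteins, rose in both (WT 0.22, limma adjusted p = 0.0108, and HT 0.27, adjusted p = 0.00133). Insyn1, an inhibitory synaptic factor bound to gephyrin, fell in both (WT -0.15, adjusted p = 0.0234, and HT -0.16, adjusted p = 0.0104). Shisa7, an auxiliary protein of GABA-A receptors, rose in WT (0.21, adjusted p = 0.0278), as did Shisa9 (0.20), better known at AMPA receptors, and Neto2 rose in HT (0.15).

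With lithium the scaffold list had 3 members higher in HT (11.5%, against 14.1%) and 1 in WT (3.85%, against 3.34%). Igsf9b, an adhesion protein of inhibitory synapses, rose in both. In HT it went from 3496 ± 498 (2632 to 4238) to 4716 ± 272 (4382 to 5169), without overlap, by 0.44 (SE 0.0794, limma adjusted p = 1.60e-04). In WT it rose by 0.34 (SE 0.0842, adjusted p = 0.0124). Trak2 (0.19), a motor adaptor, and Glrb (0.14), the glycine receptor subunit that binds gephyrin, also rose in HT. Lithium against fluoxetine passed for 5 of 26 (19.2%, against 12.3%), Insyn1 (0.16) and Igsf9b (0.29) among those higher, and Slitrk3 (-0.18), an inhibitory synaptic adhesion protein, and Plcl1 (-0.15) lower.

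Among 12 genes of GABA synthesis, uptake and breakdown, 1 rose and 2 fell in HT with lithium (25%, against 14.1% of all genes), among them the glutamine transporter Slc38a3 (-0.26, limma adjusted p = 0.0185). Fluoxetine in HT raised 1 (8.33%, against 12.8%), the astrocyte enzyme Glul (0.14, limma adjusted p = 0.00903). Slc38a2 rose with lithium in WT (0.22, adjusted p = 0.0476) and exceeded its fluoxetine level (0.13). Of 9 perineuronal net genes, whose products surround Pvalb cells, Hapln1 rose in HT with fluoxetine (0.32, adjusted p = 5.19e-04) and with lithium (0.18, adjusted p = 0.0337). Ncan fell with fluoxetine (-0.14) and Bcan with lithium (-0.21) in HT. Each drug thus changed 2 of 9 in HT (22.2%, against 12.8% of all genes for fluoxetine and 14.1% for lithium), 1 in each direction.

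Of 31 other interneuron genes 4 were higher and 3 lower with lithium than with fluoxetine (22.6%, against 12.3% of all genes). Syt2, a synaptotagmin of the terminals of Pvalb cells, was among the higher genes (0.30, SE 0.0926, limma adjusted p = 0.0275). Its 18 lithium libraries averaged 730 normalised counts and the 20 fluoxetine libraries 611. Cplx3 (-0.31), Id2 (-0.15) and Kit (-0.10), known in Lamp5 and neurogliaform cells among others, were the lower genes. Lithium in HT lowered Htr3a (-0.33), the serotonin-gated channel of Vip and neurogliaform cells, and Kit (-0.13), which are 2 of 31 (6.45%, against 14.1% of all genes). Fluoxetine in HT raised Maf (0.16) and Id2 (0.18) and lowered Elfn1 (-0.15) and the fast-spiking channel gene Kcnc1 (-0.14), which are 4 of 31 (12.9%, against 12.8% of all genes). Kcnc1 was also lower in HT than in WT under fluoxetine (-0.20, adjusted p = 0.0272), the 1 gene of this list that passed between genotypes (3.23%, against 0.612% of all genes).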

How the data were processed

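Gene expression was measured by stranded mRNA sequencing of prefrontal cortex in 58 mice. The authors deposited 1 table of signal values, gene counts divided by a size factor for each library. Per the submitters' processing notes, the tools were DESeq2 1.19.11, Salmon 0.11.2 and R 3.6.0, with the build GRCm38. The use of strand in counting is not given in the sources used here. Every value was a whole multiple of 1 read within 0.01 (100% of values), 1 read being worth 0.75 to 1.27, so reads were recovered. In 4 libraries that step was too near 1 to be read with confidence, and count tests (edgeR 4.0.16, DESeq2 1.42.0) used the other 54. Because the values were not raw counts, limma 3.58.1 (R 4.3.3, with trend) was fitted on log2(normalised count + 1) for 16669 genes with a mean of at least 10. The fit had 12 groups of genotype, treatment and sex, contrasts averaged the sexes, and p values were adjusted by Benjamini-Hochberg over all genes. A fold on this scale understates changes of low genes. Checks on simulated data preceded the fits.

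All 33 members are named. Members with an adjusted p under 0.05 are given by group, and where fewer than 3 passed, the 3 of smallest p are given. Companion genes are up to 4 passed genes of smallest p for each list and comparison. Members and lists were chosen with earlier results of these data known. Comparisons of either drug with vehicle in a genotype share vehicle libraries. Alternatives were quantile normalisation, other filters and pseudocounts, limma without trend, the compared groups alone, a replicate block, tissue levels as covariates, count tests and each library left out. Promoters are from RefSeq (GRCm38.p6). Results for a few genes of the companion and marker lists are not reported here.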

Additional observations from a re-analysis of the deposited data

Results flagged for a closer look

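In each group of 8 or 10 libraries of 1 genotype and treatment, both sexes together, the lowest and highest value of every member was compared with its neighbour relative to the range of the group (Dixon's ratio), and 6 of 198 such groups held a library that stood apart. Chance gives about 1 in 20. Slc32a1 was 2690 normalised counts in WT fluoxetine male 1, where the other 9 libraries had 1650 to 2180. Cck was 10100 in WT fluoxetine male 2, against 6010 to 8060. Lamp5 was 8190 in WT vehicle male 1, against 4510 to 6310, and Gphn was 1810 in the same library, against 2050 to 2180. Gabbr1 was 18400 in WT lithium female 1, against 20000 to 21100. Dlx5 was 568 in HT fluoxetine male 4, against 117 to 308, and this library had the highest olfactory bulb level of all.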

How the results depend on the processing

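Of the counts of members that passed, 18 changed by over 1.5 times under an alternative and 173 did not. With the olfactory bulb level in the fit, 1 member passed for HT against WT under fluoxetine (0 otherwise), 12 for fluoxetine in HT (5 otherwise), 1 for lithium in WT (0 otherwise) and 9 for lithium against fluoxetine (5 otherwise). With both bulb and striatal levels these were 1, 12 and 1 for the first 3. The striatal level alone gave 3 for fluoxetine in WT (1 otherwise). On 54 libraries, edgeR and limma each gave 1 for fluoxetine in HT and 2 for lithium in HT (5 each otherwise). DESeq2 gave 1 for HT against WT under fluoxetine, 2 for fluoxetine in WT, 2 for fluoxetine in HT and 3 for lithium in HT. Without the 10 libraries of low bulb level 0 passed for fluoxetine in WT, and without the 2 of high striatal level 1 passed for HT against WT under fluoxetine. The fits on 54 or 48 libraries have fewer samples, and the cause of the other changes was not tested. Dlx6 for fluoxetine in HT reversed, from -0.11 to 0.24 with the bulb level and 0.26 with both levels, and its slope on the bulb level is 0.23.

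Leaving out 1 library at a time gave 0 to 1 member for HT against WT under fluoxetine, 0 to 4 for fluoxetine in WT, 4 to 6 for fluoxetine in HT, 3 to 6 for lithium in HT, 4 to 7 for lithium against fluoxetine and 28 to 31 for the slope on the bulb level, and 0 to 0 for the other comparisons. Lithium in HT gave 3 without HT lithium female 4 or male 5. Fluoxetine in WT gave 4 without WT vehicle male 3, 3 without WT fluoxetine male 2 or WT vehicle male 4, and 2 without WT vehicle female 2. Quantile normalisation moved the median of all genes by under 0.01, and Slc32a1 for fluoxetine in HT missed the threshold under it (adjusted p = 0.06).

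Replicate numbers are shared between groups, but they do not pair the libraries. Over 309 pairs of the same number the deviations correlated with a median of -0.00702 (-0.469 to 0.42), over 1232 pairs of different numbers with 0.00364, and 11 of 58 libraries correlated best with their own number. The fit with a replicate block called 1 member for fluoxetine in WT, 5 for fluoxetine in HT, 5 for lithium in HT, 5 for lithium against fluoxetine and 0 elsewhere, the counts without it. The alternatives with libraries left out by tissue level, both levels together or limma on 54 libraries were chosen after seeing the data. Depth limits the members little, since the lowest, Dlx6, averaged 138 normalised counts.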
